A study of Rattus norvegicus with 11 samples.

Results

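Prostaglandins are lipid signals made from arachidonic acid, and the genes described here are those that make prostaglandin E2 and its relatives, inactivate them, or receive prostaglandin E2 at the cell surface. The set was a list of 10 gene names, chosen by function but with earlier results of these data known: Ptgs1, Ptgs2, Ptges, Ptges2, Ptges3, Ptgis, Ptgds, Hpgd, Ptger2 and Ptger4. A row was taken for 9 of the 10 among 32883 genes. Ptgis, the prostacyclin synthase, is not analysed here. Of the 9, 8 had at least 1 FPKM in at least 3 libraries and entered the tests, and Ptgds did not.

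The cells were rat bone marrow mesenchymal stem cells, the adherent stromal cells of marrow, sampled at day 3 in 11 libraries. The 4 IRDC libraries were read as cells given medium conditioned by dendritic cells irradiated with 8 Gy. The 3 imDC libraries were read as cells given medium of unirradiated dendritic cells (0 Gy), and the 4 control libraries as cells without either medium. The titles carry no dose, so this reading rests on the names, and the series text and the titles abbreviate the dendritic cells differently (mDC and imDC). The labels give no strain, age or sex, no number of medium preparations and no description of what the controls received, so an effect of one preparation of medium cannot be told apart from an effect of the group. They call the libraries biological replicates but do not say that each had its own animal or culture. The p-values below therefore speak only of the spread among these 11 libraries, and that spread may be technical.

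In the pathway, phospholipases free arachidonic acid from membranes, a cyclooxygenase turns it into prostaglandin H2, and a terminal synthase turns that into a particular prostaglandin. Prostaglandin E2 then signals through a family of EP receptors, of which EP2 and EP4 raise cyclic AMP, and it is inactivated inside cells by a dehydrogenase after uptake by a transporter. In marrow stromal cells, prostaglandin E2 is known as a secreted signal that restrains immune cells and acts on bone turnover, and its inducible enzymes are switched on by inflammatory cytokines such as interleukin 1.

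Values are FPKM, a read level corrected for transcript length and sequencing depth, so levels of different genes may be compared. Errors are SDs over 4 IRDC, 3 imDC and 4 control libraries throughout. Fold changes are differences of mean log2(FPKM + 1), given with a standard error (SE), and they understate the change of genes near or below 1 FPKM. A change was called at an adjusted p under 0.05 (limma with Benjamini-Hochberg over all 12521 genes tested). Library depth, recovered from the steps between FPKM values, was 17.8 to 25.5 M reads.

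The inducible enzymes Ptgs2 and Ptges are the members that moved most, and they moved in the same direction. Their rat promoters are printed for that reason, as the 250 bases before the annotated RefSeq start. In both, capitals mark GGGCGG, the GC box. In Ptgs2 they also mark CACGTG, which holds ACGTG, the core of the hypoxia response element, on each strand in overlapping matches.
Ptgs2 (GRCr8 chr13:64713813-64714062, plus strand): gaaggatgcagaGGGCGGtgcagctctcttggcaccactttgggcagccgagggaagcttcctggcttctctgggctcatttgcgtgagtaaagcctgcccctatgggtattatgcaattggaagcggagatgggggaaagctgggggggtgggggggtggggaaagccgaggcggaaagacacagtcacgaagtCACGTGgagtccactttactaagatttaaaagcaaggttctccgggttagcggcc
Ptges (GRCr8 chr3:34586988-34587237, minus strand): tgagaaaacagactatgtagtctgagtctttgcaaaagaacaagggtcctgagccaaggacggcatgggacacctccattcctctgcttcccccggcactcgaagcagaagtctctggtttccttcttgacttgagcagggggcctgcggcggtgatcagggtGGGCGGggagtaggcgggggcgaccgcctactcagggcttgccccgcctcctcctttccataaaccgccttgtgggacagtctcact
The GC box began 238 bases before the start in Ptgs2 and 87 bases before it in Ptges, and the 2 ACGTG matches of Ptgs2 began 55 and 54 bases before it. Both strands were searched for the GC box, the hypoxia response element core, the cAMP response element core (TGACG), the AP-1 site (TGANTCA) and the kappaB site, and the gene strand for the TATA box (TATAAA). Among 33469 rat promoters of that length, 30.5% held the GC box, 16.6% the hypoxia core, 18.2% the cAMP core, 6.34% the AP-1 site, 3.54% the kappaB site and 8.06% the TATA box. Neither the Ptgs2 nor the Ptges window held a cAMP core, an AP-1 site, a kappaB site or a TATA box. The hypoxia core was also absent from the Ptges window. The same window of Ptgs1, the gene for the constitutive cyclooxygenase, held none of the patterns searched. A match is a run of letters in this window and no measurement of binding.

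Counts over the whole set come first. In IRDC against control libraries, 2 of the 8 members tested were called higher (Ptgs2 and Ptges), 3 lower (Ptgs1, Hpgd and Ptger4) and 3 were not called (Ptges2, Ptges3 and Ptger2). Of all genes tested, 76.0% were called in that comparison, 24.5% higher and 51.5% lower, so 5 called of 8 is below that background. Hpgd entered the tests only through the imDC and control libraries, where it was higher, so its place in these counts is a description. In imDC against control libraries, 2 members were called higher (Ptgs2 and Ptges) and 3 lower (Ptgs1, Ptger4 and Ptges2), against a background of 63.2% called, 23.1% higher and 40.1% lower. In IRDC against imDC libraries, 3 were called higher (Ptgs2, Ptges and Ptges2) and 2 lower (Ptgs1 and Hpgd), against 58.8% of all genes, 20.2% higher and 38.6% lower. In each comparison 5 of the 8 members had groups that did not overlap, beside 70.2%, 62.8% and 59.0% of all genes in the order given. The sizes of the changes say more. Ptgs2 and Ptges were called and at least 2-fold higher on the log2(FPKM + 1) scale in all 3 comparisons, and 6.01%, 3.89% and 1.69% of all genes met that rule. The comparisons share libraries, so their values stand side by side and are not separate evidence.

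**Figure D1:**
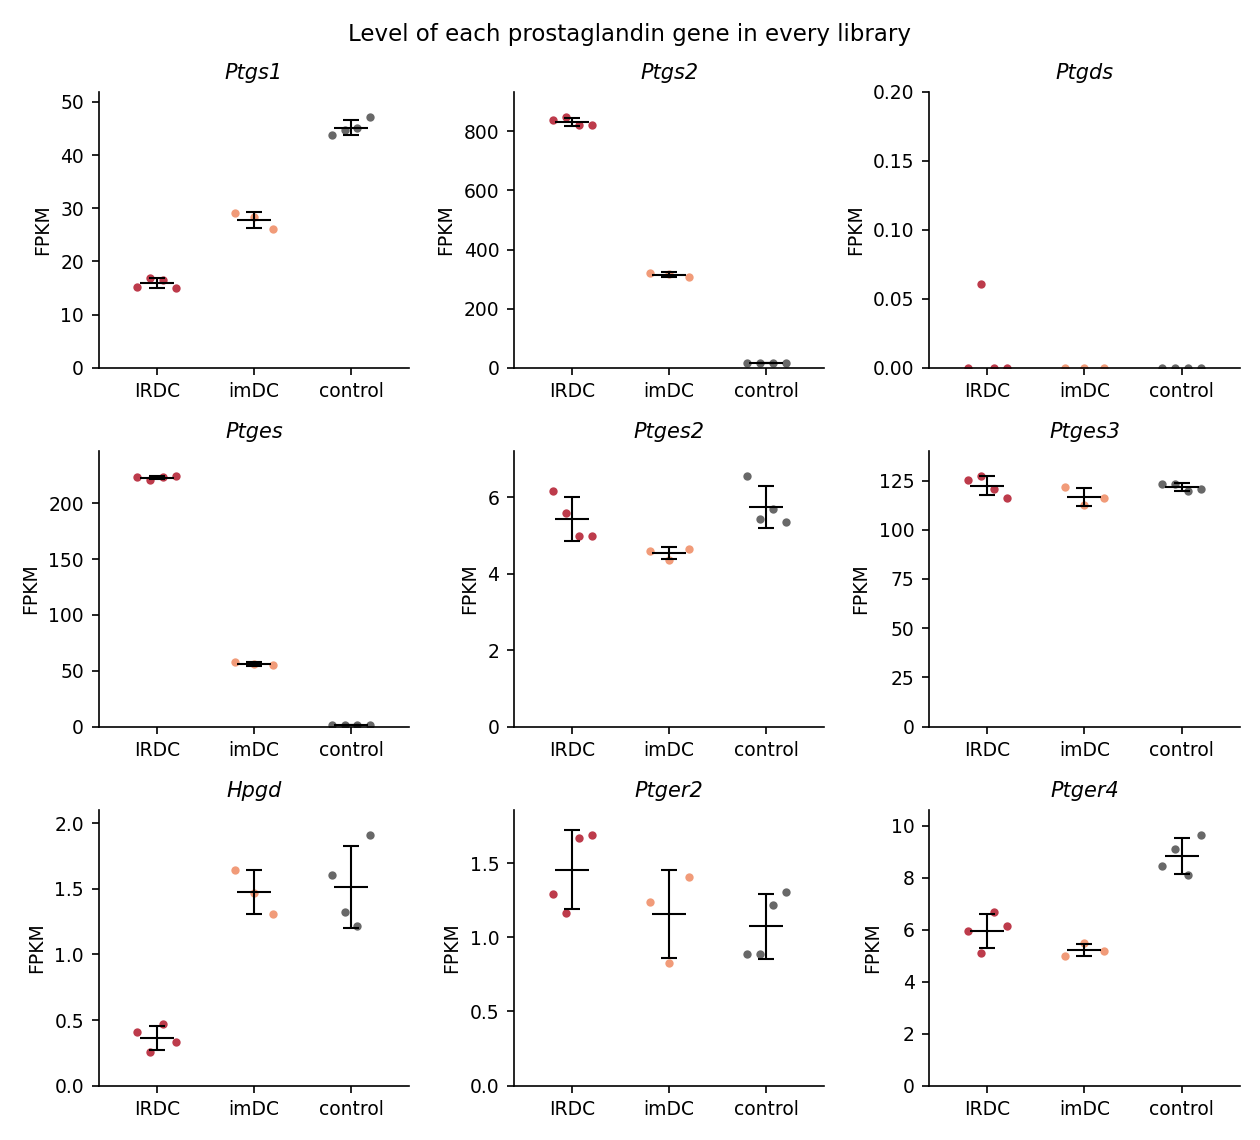
FPKM of the 9 members in every library, a panel each with its own axis from 0; points are libraries of IRDC (left), imDC (middle) and control (right), and bars are the mean and SD, left out for Ptgds. Ptgs2 and Ptges stepped down in 3 separate tiers in the order IRDC, imDC, control, Ptgs1 stepped up in the same order, and Ptgds had a single point above 0.

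Of the cyclooxygenase genes, Ptgs2, which encodes the inducible enzyme COX-2, held most of the FPKM in the treated cells. These values are RNA levels, and no protein, enzyme activity or prostaglandin was measured here. Ptgs2 had 840, 848, 820 and 823 FPKM in IRDC libraries, 321, 319 and 306 FPKM in imDC libraries, and 17.4, 16.9, 16.4 and 15.3 FPKM in control libraries. The 3 groups were far apart and no library came near another group. Its mean of 833 ± 13.5 FPKM in IRDC libraries ranked 47th among the genes tested, its mean of 315 ± 8.11 FPKM in imDC libraries 204th, and its mean of 16.5 ± 0.929 FPKM in control libraries 4828th. The ratio of means was 50.4 for IRDC over control, 19.1 for imDC over control and 2.64 for IRDC over imDC. The log2 fold changes were 5.57 (SE 0.03, limma adjusted p = 3.91e-18), 4.18 (SE 0.04, adjusted p = 4.05e-16) and 1.40 (SE 0.04, adjusted p = 8.91e-12) in that order.

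Ptgs1, which encodes the constitutive cyclooxygenase COX-1, moved the other way. It had 15.1, 16.8, 16.5 and 15.0 FPKM in IRDC libraries, 29.0, 28.3 and 26.0 FPKM in imDC libraries, and 43.7, 44.8, 45.0 and 47.2 FPKM in control libraries. Again no group overlapped another, with IRDC lowest and control highest. Ptgs1 fell by 1.45 on the log2 scale in IRDC against control (SE 0.05, limma adjusted p = 1.17e-11), by 0.68 in imDC against control (SE 0.05, adjusted p = 1.04e-07) and by 0.77 in IRDC against imDC (SE 0.05, adjusted p = 4.23e-08). Its mean was 15.9 ± 0.920 FPKM in IRDC, 27.8 ± 1.57 FPKM in imDC and 45.2 ± 1.43 FPKM in control libraries, so it was 2.85-fold lower in IRDC and 1.63-fold lower in imDC than in control.

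Marker levels of other cells also differed between these groups. The summed FPKM of 25 dendritic cell and macrophage markers was 598 to 604 in IRDC, 921 to 954 in imDC and 908 to 927 in control libraries. Lyz2 alone had 185 ± 3.25, 496 ± 11.2 and 519 ± 5.87 FPKM in the same order, so it weighs heavily in these sums. Xcr1 and Marco were at 0 in every library, and Flt3 was at 0 in the imDC libraries. Of the 17 of these markers tested, 7 were higher and 9 lower in IRDC against control, beside 24.5% and 51.5% of all genes. In imDC against control 9 were higher and 6 lower, beside 23.1% and 40.1% of all genes. With TMM-like scaling the splits were 8 and 8 in IRDC and 10 and 5 in imDC against control. The pan-leukocyte gene Ptprc had 5.23 ± 0.142 FPKM in IRDC, 8.48 ± 0.931 FPKM in imDC and 17.6 ± 0.723 FPKM in control libraries, the same order as Ptgs1. Other markers of that list were higher than in control libraries. Cd163 had 27.5 ± 0.879 FPKM in IRDC and 20.3 ± 0.306 FPKM in imDC, against 0.956 ± 0.242 FPKM in control libraries. C1qa had 18.3 ± 0.634 FPKM in IRDC and 18.6 ± 0.689 FPKM in imDC, against 3.96 ± 0.531 FPKM in control libraries. Cd14 had 89.1 ± 2.32 FPKM in IRDC and 74.5 ± 4.96 FPKM in imDC, against 47.9 ± 2.49 FPKM in control libraries. These markers differed in both directions, and these examples were picked with their values known. The 10 adipocyte markers summed to 44.5 to 47.1 FPKM in IRDC, 138 to 140 FPKM in imDC and 217 to 232 FPKM in control libraries. All 6 tested were called lower in IRDC and in imDC against control, beside 51.5% and 40.1% of all genes. Adipoq, Plin4 and Pparg had every IRDC library below 1 FPKM, and Plin4 every imDC library too, so the filter built in part of that count. With other scalings between libraries it was 5 of 6 in IRDC (quantile) and in imDC (TMM-like) against control. Stromal markers, 13 in number, summed to 7040 to 7125, 6980 to 7023 and 5976 to 6138 FPKM, and 8 endothelial markers to 12.8 to 15.1, 12.9 to 13.6 and 11.0 to 11.8 FPKM, in IRDC, imDC and control in that order. Emcn and Cldn5 were at 0 in every library. Ptgs1 followed the order of the adipocyte sums, lowest in IRDC and highest in control. Hpgd and Ptger4 were also lower in IRDC than in control libraries, but they did not follow that order. Mean Hpgd was 1.47 FPKM in imDC and 1.51 FPKM in control, and mean Ptger4 was lowest in imDC (5.21 FPKM, against 5.97 FPKM in IRDC). The part of marker-bearing cells in these results was not tested. In bulk RNA, fewer cells of a type and less RNA per cell cannot be told apart.

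Within the cyclooxygenase pair the balance changed over. Ptgs2 made up 98.1 ± 0.102% of the summed Ptgs1 and Ptgs2 FPKM in IRDC libraries, 91.9 ± 0.235% in imDC libraries and 26.8 ± 1.71% in control libraries. Control cells therefore held more Ptgs1 than Ptgs2 in each of the 4 libraries (a Ptgs2 share of 24.5 to 28.5%), and both treated groups held more Ptgs2 in every library. The sum itself was 849 ± 13.8 FPKM in IRDC, 343 ± 9.67 FPKM in imDC and 61.7 ± 0.532 FPKM in control libraries. A share within a library does not move with the scaling between libraries. The difference in share was 71.3 percentage points for IRDC minus control (two-sided exact permutation test, p = 0.0286), 65.1 points for imDC minus control (exact p = 0.0571) and 6.23 points for IRDC minus imDC (exact p = 0.0571). These are the smallest p-values that 4 against 4 and 4 against 3 libraries allow, and adjusted over the 9 share tests each became 0.0643.

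The set holds 3 terminal synthases of prostaglandin E2, and the inducible one was the member with the largest change. Ptges encodes microsomal prostaglandin E synthase 1, the inducible enzyme that is known to work with COX-2. It had 223, 221, 223 and 224 FPKM in IRDC libraries, 57.8, 55.9 and 54.8 FPKM in imDC libraries, and 1.65, 1.35, 1.91 and 1.55 FPKM in control libraries. The groups were separate, and the control values rested on 38 to 61 reads a library, against 1288 to 1345 in imDC and 5740 to 6070 in IRDC. Mean Ptges was 138-fold higher in IRDC than in control, 34.8-fold higher in imDC than in control and 3.97-fold higher in IRDC than in imDC. The log2 fold change was 6.42 (SE 0.05, limma adjusted p = 3.69e-17) in IRDC against control, the 8th highest of all genes tested, where Ptgs2 was 17th. It was 4.45 (SE 0.06, adjusted p = 6.84e-15) in imDC against control, 14th from the top with Ptgs2 20th. It was 1.97 (SE 0.06, adjusted p = 1.97e-11) in IRDC against imDC, 12th from the top with Ptgs2 81st.

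The log2 fold change of Ptges was above that of Ptgs2 in each of the 3 comparisons. Within libraries there were 26.0 to 27.3 FPKM of Ptges for every 100 FPKM of Ptgs2 in IRDC, 17.6 to 18.0 in imDC and 7.95 to 11.6 in control. These ratios did not overlap between groups and are given as a description, with no test.

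Ptges2 encodes a second membrane-associated prostaglandin E synthase that is expressed constitutively in many tissues. It had 6.17, 5.59, 4.99 and 5.00 FPKM in IRDC libraries, 4.60, 4.35 and 4.65 FPKM in imDC libraries, and 6.56, 5.42, 5.69 and 5.36 FPKM in control libraries. The imDC libraries lay below all others, and the IRDC and control libraries overlapped. It was called lower in imDC against control, with a log2 fold change of -0.28 (SE 0.08, limma adjusted p = 0.00796), and higher in IRDC against imDC, with 0.21 (SE 0.08, adjusted p = 0.0367). The first call was lost under TMM-like scaling (adjusted p = 0.0538). The second was lost in 7 of 18 alternatives, among them leaving out any of the 3 imDC libraries or IRDC replicate 1 or 2 (adjusted p = 0.0606 to 0.109). Between IRDC and control its log2 fold change was -0.07 (95% interval -0.23 to 0.09, adjusted p = 0.400), and this sign turned under TMM-like (0.11) and quantile scaling (0.15).

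Ptges3 encodes p23, a co-chaperone of HSP90 that also has prostaglandin E synthase activity. It had 125, 127, 121 and 116 FPKM in IRDC libraries, 122, 112 and 116 FPKM in imDC libraries, and 123, 123, 119 and 121 FPKM in control libraries. All 3 groups overlapped, and none of the 3 comparisons was called with all libraries. The log2 fold changes were 0.01 (95% interval -0.06 to 0.07) in IRDC against control, -0.06 (-0.13 to 0.01) in imDC against control and 0.07 (-0.0045 to 0.14) in IRDC against imDC. Single libraries decided whether these small changes passed: imDC against control passed without imDC replicate 1 (-0.09, limma adjusted p = 0.0396), and IRDC against imDC without imDC replicate 1 (0.10, adjusted p = 0.0319) or IRDC replicate 4 (0.09, adjusted p = 0.0237). Reads of Ptges3 could be shared with near copies elsewhere in the rat genome, so its level is uncertain. Ptges2, Ptges3, Ptger2 and Ptger4 each overlap a long noncoding RNA in the GRCr8 RefSeq annotation, and since no source used here says that strand was used in counting, reads of such a pair cannot be told apart.

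Ptges supplied most of the summed FPKM of the 3 prostaglandin E synthases in IRDC libraries and hardly any in control libraries. Its share was 63.6 ± 1.11% in IRDC, 31.7 ± 0.632% in imDC and 1.25 ± 0.191% in control libraries, where Ptges3 made up nearly all the rest. The sum was 351 ± 4.19 FPKM in IRDC, 177 ± 5.85 FPKM in imDC and 129 ± 2.15 FPKM in control libraries. Differences in share were 62.3 points for IRDC minus control (two-sided exact permutation p = 0.0286), 30.4 points for imDC minus control and 31.9 points for IRDC minus imDC (exact p = 0.0571 for each). All 3 were again at the smallest p possible, with an adjusted p of 0.0643.

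**Figure D2:**
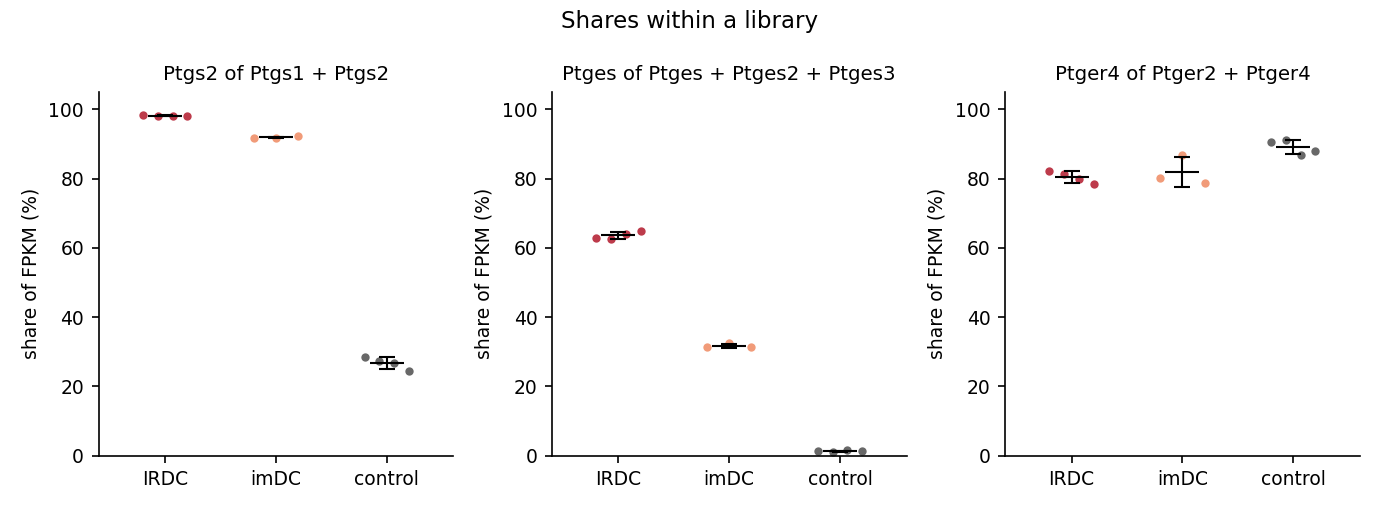
Share of FPKM within each library, in percent on an axis from 0, for IRDC (left), imDC (middle) and control (right); points are libraries and bars the mean and SD. The Ptgs2 share was 98.1, 91.9 and 26.8% and the Ptges share 63.6, 31.7 and 1.25% in IRDC, imDC and control, while the Ptger4 share of IRDC and imDC overlapped.

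Ptgds, the lipocalin-type prostaglandin D synthase, was at or near 0. IRDC replicate 2 had 0.0605 FPKM and the other 3 IRDC, 3 imDC and 4 control libraries held 0. That value was taken as 1 read, the smallest count possible, since a value in a single library cannot show its read number. A count of 0 allows up to 3 reads, which on that reading is 0.150 to 0.215 FPKM depending on the library. This limit covers counting error only. No difference was detectable at this depth.

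Hpgd encodes 15-hydroxyprostaglandin dehydrogenase, which carries out the first step of prostaglandin inactivation. It was a low gene, with 0.407, 0.255, 0.467 and 0.333 FPKM in IRDC libraries, 1.64, 1.47 and 1.31 FPKM in imDC libraries, and 1.60, 1.32, 1.21 and 1.91 FPKM in control libraries. Every IRDC library lay below every other library, and imDC and control overlapped. The values rested on 9 to 17 reads a library in IRDC, 43 to 49 in imDC and 50 to 69 in control. Hpgd passed the filter through the imDC and control libraries alone, since no IRDC library reached 1 FPKM. Its adjusted p-values are therefore taken from the fit with no filter, over the 21487 genes with a value above 0 in any library. Mean Hpgd was 4.14-fold lower in IRDC than in control and 4.03-fold lower in IRDC than in imDC. On the log2(FPKM + 1) scale it fell by 0.87 (limma adjusted p = 1.50e-05) and by 0.86 (adjusted p = 6.75e-05), and with a pseudocount of 0.1 the log2 fold changes were -1.79 and -1.77. Between imDC and control the log2 fold change was -0.02 (95% interval -0.26 to 0.23, adjusted p = 0.937). The order of levels was thus IRDC below imDC and control, with imDC and control not apart beyond their spread.

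Both receptors measured here raise cyclic AMP when prostaglandin E2 binds. Ptger4, the gene for EP4, had 5.96, 5.10, 6.67 and 6.14 FPKM in IRDC libraries, 5.00, 5.47 and 5.17 FPKM in imDC libraries, and 8.45, 9.11, 8.08 and 9.64 FPKM in control libraries. All treated libraries lay below all control libraries, and IRDC and imDC overlapped. Ptger4 fell by 0.50 on the log2 scale in IRDC against control (SE 0.07, limma adjusted p = 4.92e-05) and by 0.66 in imDC against control (SE 0.08, adjusted p = 1.36e-05). IRDC against imDC gave 0.16 (95% interval -0.01 to 0.33, adjusted p = 0.102), which passed the threshold under TMM-like (adjusted p = 0.0167) and quantile scaling (0.00521) and without IRDC replicate 2 (0.0191).

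Ptger2, the gene for EP2, was lower still. Its values were 1.29, 1.17, 1.67 and 1.69 FPKM in IRDC libraries, 1.23, 0.828 and 1.41 FPKM in imDC libraries, and 0.890, 0.884, 1.22 and 1.30 FPKM in control libraries, on 31 to 71 reads each. All 3 groups overlapped and no comparison was called. The log2 fold change of IRDC against control was 0.24 (95% interval -0.01 to 0.50, limma adjusted p = 0.0796). It passed under TMM-like (adjusted p = 0.0146) and quantile scaling (0.00225) and without IRDC replicate 2 (0.0475). For imDC against control it was 0.05 (-0.23 to 0.33) and for IRDC against imDC 0.19 (-0.09 to 0.47), which passed under quantile scaling (0.40, adjusted p = 0.0176).

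Ptger4 held most of the summed Ptger2 and Ptger4 FPKM in every library. Its share was 80.5 ± 1.65% in IRDC, 81.9 ± 4.38% in imDC and 89.2 ± 2.00% in control libraries. The difference was -8.67 points for IRDC minus control (two-sided exact permutation p = 0.0286, adjusted p = 0.0643) and -7.27 points for imDC minus control (exact permutation p = 0.0571, adjusted p = 0.0643). IRDC minus imDC was -1.40 points (exact permutation p = 0.629, also 0.629 after adjustment).

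**Figure D3:**
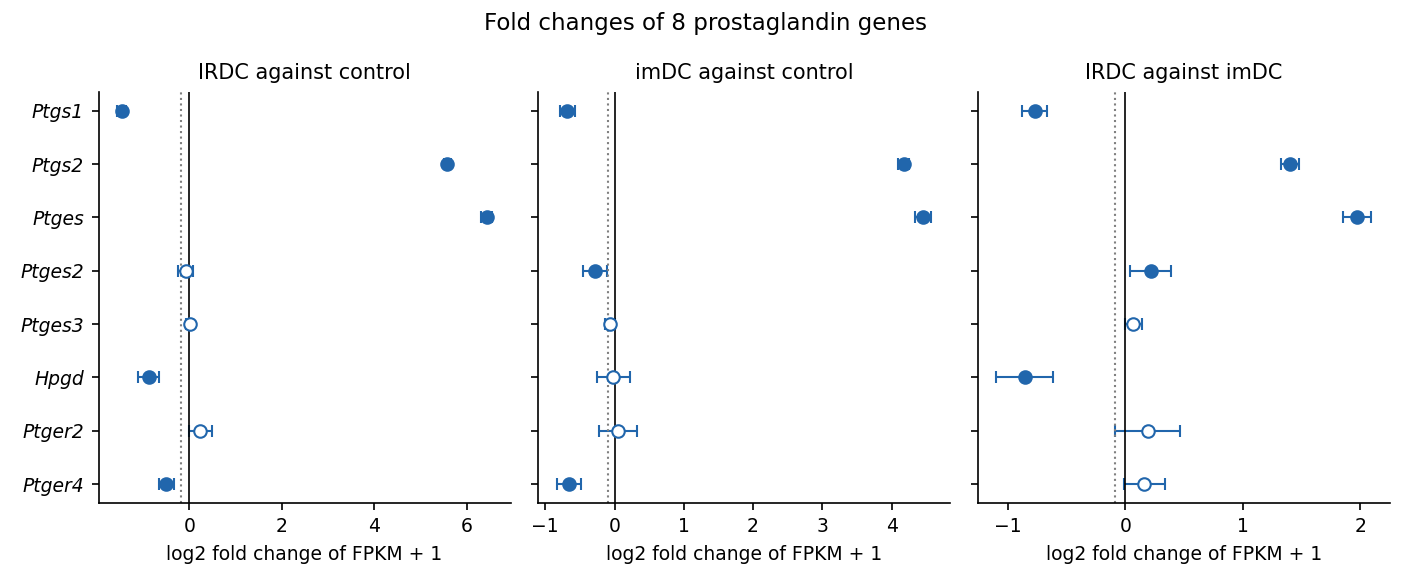
Log2 fold change of FPKM + 1 of the 8 tested members with 95% intervals, for IRDC against control (left), imDC against control (middle) and IRDC against imDC (right), each with its own axis; filled points have an adjusted p under 0.05, and the dotted line is the median of all genes tested. Ptgs2 and Ptges lie far to the right in each panel, Ptgs1 lies to the left in each, and Hpgd lies to the left wherever IRDC is compared.

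The scaling between libraries matters for the small changes. The median gene had a log2 fold change of -0.18 in IRDC against control and -0.09 in both other comparisons, and TMM-like scaling brought these medians to 0.00. Under that scaling 4592 genes were called higher and 4540 lower in IRDC against control, beside 3070 and 6447 with the authors' scaling. The same counts were 3780 and 3699 beside 2895 and 5017 in imDC against control, and 3629 and 3527 beside 2535 and 4827 in IRDC against imDC. Relative to the median gene, IRDC against control gave 5.75 for Ptgs2, 6.60 for Ptges, -1.28 for Ptgs1, -0.70 for Hpgd and -0.32 for Ptger4, so those directions stood. Relative to that median Ptges2 was at 0.11, Ptges3 at 0.18 and Ptger2 at 0.42. Ptges3 was then called higher under TMM-like scaling in IRDC against control (0.21, limma adjusted p = 0.000158) and in IRDC against imDC (0.17, adjusted p = 0.00215), but lower under quantile scaling in imDC against control (-0.10, adjusted p = 0.0165).

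**Figure D4:**
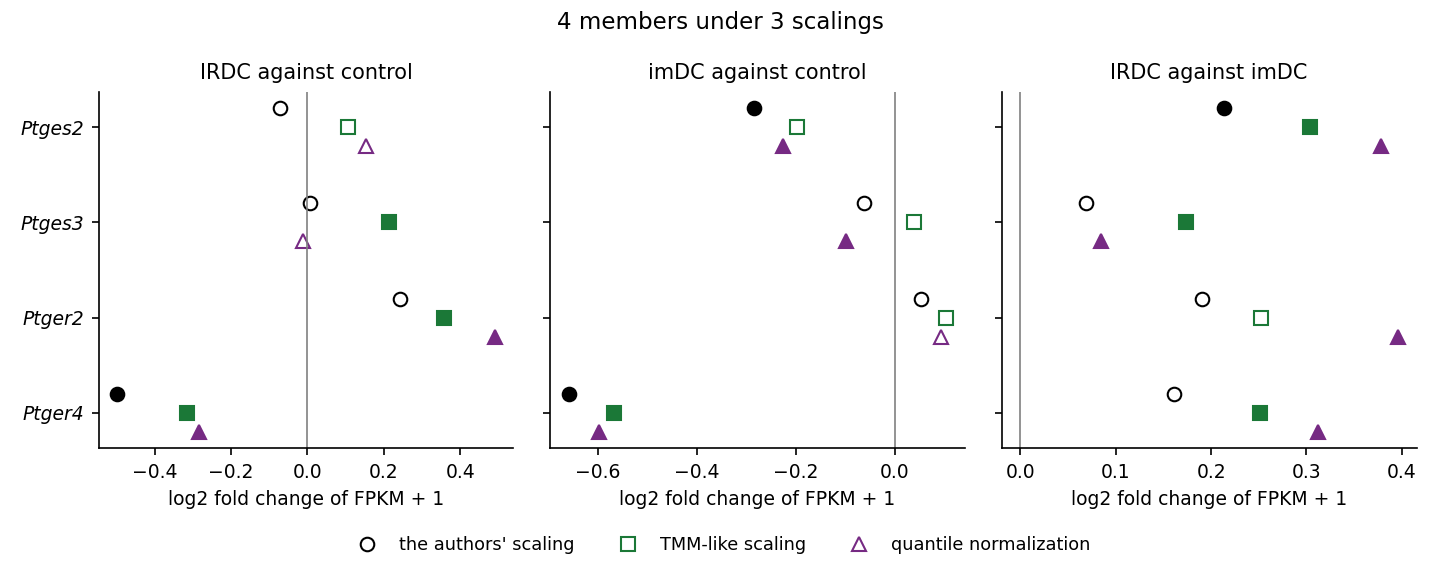
Log2 fold change of FPKM + 1 of Ptges2, Ptges3, Ptger2 and Ptger4 under the authors' scaling (circles), TMM-like scaling (squares) and quantile normalization (triangles), with panels for IRDC against control, imDC against control and IRDC against imDC; filled symbols have an adjusted p under 0.05. Ptger4 stayed left of 0 against control under all 3, while Ptges2 and Ptges3 lie near 0 and cross it in IRDC against control.

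The steps before cyclooxygenase changed in both directions. Of 16 tested genes for phospholipases and arachidonate supply, 5 were higher and 10 lower in IRDC against control, 6 and 8 in imDC against control, and 4 and 10 in IRDC against imDC. The list medians were -0.29, -0.10 and -0.33, beside -0.18, -0.09 and -0.09 for all genes. TMM-like scaling gave 5 higher and 8 lower, 6 and 6, and 5 and 8 in the same order. Its list medians were -0.10, -0.01 and -0.24. Counts of this and the following lists are to be read against 24.5% higher and 51.5% lower of all genes in IRDC against control, 23.1% and 40.1% in imDC against control, and 20.2% and 38.6% in IRDC against imDC. Pla2g2a, Mgll, Tbxa2r, Il1a and Il1b reached 1 FPKM only in the groups where they were high, so a difference from the group where they were low was built into the filter, and that difference is given by their levels. Pla2g4a, the cytosolic phospholipase A2 that frees arachidonic acid, had 72.1 ± 1.19 FPKM in IRDC, 29.9 ± 1.37 FPKM in imDC and 12.3 ± 0.562 FPKM in control libraries, the order of Ptgs2 and Ptges, and was called in all 3 comparisons (log2 fold changes 2.46, 1.22 and 1.24, limma adjusted p at most 5.63e-11). The secreted phospholipase gene Pla2g2a had 6.76 ± 0.601 FPKM in IRDC and 8.71 ± 1.75 FPKM in imDC, against 0.346 ± 0.123 FPKM in control libraries. IRDC against imDC, where both groups were above 1 FPKM, gave -0.31 (adjusted p = 0.0356), a call that was lost under TMM-like and quantile scaling.

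Other enzymes of the list fell. Plaat3, a phospholipase and acyltransferase of fat cells, had 3.32 ± 0.233 FPKM in IRDC, 12.9 ± 1.38 FPKM in imDC and 37.1 ± 3.10 FPKM in control libraries. Mgll, a monoacylglycerol lipase, had 0.218 ± 0.0718, 1.73 ± 0.147 and 5.52 ± 0.527 FPKM in the same groups. The desaturases that build arachidonate from shorter precursors fell in IRDC against imDC, Fads1 by 1.59 (15.9 ± 0.557 against 49.8 ± 1.78 FPKM) and Fads2 by 1.40 (13.3 ± 0.563 against 36.9 ± 0.952 FPKM). Plaat3, Mgll and Fads1 were lowest in IRDC and highest in control, the order of the adipocyte marker sums, whose part was not tested. Fads2 did not follow them, with a log2 fold change of -0.03 in imDC against control (36.9 ± 0.952 against 37.7 ± 0.997 FPKM, adjusted p = 0.494).

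Among 10 tested genes for other prostanoid synthases, reductases and transport, 1 was higher and 6 lower in IRDC against control, 2 and 5 in imDC against control, and 2 and 5 in IRDC against imDC. The list medians were -0.60, -0.17 and -0.23, beside the all-gene medians above, and 7 called of 10 in IRDC against control is near the background of 76.0%. Under TMM-like scaling the higher and lower counts were 3 and 6 in IRDC against control and 4 and 5 in IRDC against imDC. Slco2a1, the transporter that takes prostaglandins into cells for inactivation, went opposite ways in the 2 media. It had 5.32 ± 0.602 FPKM in IRDC, 23.1 ± 0.184 FPKM in imDC and 11.0 ± 0.349 FPKM in control libraries, and fell by 0.93 in IRDC against control (limma adjusted p = 1.58e-08), rose by 1.01 in imDC against control (adjusted p = 3.33e-08) and fell by 1.94 in IRDC against imDC (adjusted p = 8.94e-11). Ptgr1, a reductase of prostaglandin breakdown products, had 41.0 ± 0.625 FPKM in IRDC, against 78.8 ± 3.21 FPKM in imDC and 71.3 ± 3.06 FPKM in control. Tbxas1, the thromboxane synthase, had 1.50 ± 0.261, 2.79 ± 0.489 and 3.93 ± 0.372 FPKM, and Cbr3, a carbonyl reductase, had 2.51 ± 0.488, 4.21 ± 0.834 and 6.92 ± 0.709 FPKM, in IRDC, imDC and control. Ptgr2 and Akr1b8 were among the genes called lower in imDC against control, by 0.66 and 0.41. In IRDC against imDC both were called higher, Ptgr2 by 0.10 (adjusted p = 0.0337) and Akr1b8 by 0.41 (adjusted p = 7.96e-08).

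The other prostanoid receptors and their regulators gave 8 tested genes. In IRDC against control 2 were higher and 4 lower, in imDC against control 3 and 2, and in IRDC against imDC 2 and 2, with list medians of -0.14, 0.03 and -0.08. Under TMM-like scaling the split was 3 and 3 in IRDC against control and 3 and 2 in IRDC against imDC. Ptger1, the gene for EP1, which signals through calcium, had 3.91 ± 0.572 FPKM in IRDC and 4.34 ± 0.908 FPKM in imDC, against 11.2 ± 0.706 FPKM in control libraries, and fell by 1.32 and 1.21 against control (limma adjusted p = 1.64e-07 and 1.56e-06). Ptgir, the prostacyclin receptor, had 5.31 ± 0.581 FPKM in IRDC and 4.01 ± 0.444 FPKM in imDC, against 2.12 ± 0.140 FPKM in control libraries. Ptgfr, the receptor of prostaglandin F2alpha, had 31.0 ± 1.25 FPKM in IRDC, 87.0 ± 1.34 FPKM in imDC and 62.9 ± 2.42 FPKM in control libraries. Ptgfrn, whose protein binds that receptor, had 166 ± 1.75, 134 ± 1.66 and 80.0 ± 0.902 FPKM. Tbxa2r, the thromboxane receptor, had 0.274 ± 0.0683, 0.731 ± 0.0694 and 1.56 ± 0.349 FPKM, with every IRDC and imDC library below 1 FPKM.

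Downstream of the cAMP-raising receptors, a list of 21 tested genes for cAMP signalling and the CREB response split in both directions. In IRDC against control 10 were higher and 11 lower, in imDC against control 6 and 8, and in IRDC against imDC 8 and 6, with list medians of -0.08, -0.02 and -0.01. With TMM-like scaling these counts were 11 and 7, 10 and 8, and 9 and 5. Rgs2, a regulator of G protein signalling, had 278 ± 3.88 FPKM in IRDC, 140 ± 5.52 FPKM in imDC and 60.0 ± 1.17 FPKM in control libraries. Pde4b, a phosphodiesterase that breaks down cAMP, had 78.1 ± 1.96, 51.6 ± 0.955 and 16.5 ± 0.808 FPKM. Sik1, a kinase induced by CREB, had 5.92 ± 0.166, 3.92 ± 0.198 and 2.36 ± 0.279 FPKM in the same order, and all 3 genes were called higher in IRDC against control and in IRDC against imDC. Nr4a3, an immediate early nuclear receptor, fell by 1.15 in IRDC and by 1.12 in imDC against control (limma adjusted p = 3.79e-08 and 2.16e-07). The EGF receptor ligand Areg fell by 0.59 in imDC against control (adjusted p = 0.0234), and the adenylyl cyclase Adcy9 by 0.51 in IRDC against imDC (adjusted p = 9.43e-05).

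Among the 6 pathway lists, regulators of Ptgs2 and Ptges expression had the highest median in each comparison with the authors' scaling. Under quantile scaling the cAMP list was above it in IRDC against imDC (0.13 against 0.07). The lists were chosen with earlier results of these data known, so the order of their medians is a description and supports nothing. Of 19 tested genes, 12 were higher and 5 lower in IRDC against control, 12 and 4 in imDC against control, and 8 and 8 in IRDC against imDC, with list medians of 0.70, 0.55 and 0.07. TMM-like scaling gave 14 higher and 4 lower in each comparison with control, and it changed the last split to 11 higher and 4 lower. The 5 called lower in IRDC against control were Tsc22d3 (-1.32), Celf2 (-1.06), Dusp1 (-0.70), Mapk14 (-0.49) and Tia1 (-0.12). The call of Tia1 was lost and its sign turned under TMM-like (0.07, limma adjusted p = 0.0823) and quantile scaling (0.0013, adjusted p = 0.976). The cytokine gene Il1a had 138 to 150 FPKM in IRDC and 26.1 to 31.0 FPKM in imDC, against 0 to 0.219 FPKM in control libraries, whose 4 libraries held 16 reads in all. Il1b had 8.96 ± 0.830 FPKM in IRDC, 2.18 ± 0.117 FPKM in imDC and 0.247 ± 0.193 FPKM in control libraries. Their receptor gene Il1r1 had 220 ± 4.82 FPKM in IRDC and 210 ± 2.71 FPKM in imDC, against 72.0 ± 0.779 FPKM in control libraries. Of the C/EBP factors known to bind the Ptgs2 promoter, Cebpb had 84.5 ± 6.45, 45.8 ± 2.04 and 20.2 ± 1.64 FPKM and Cebpd 99.3 ± 4.41, 95.1 ± 3.88 and 22.2 ± 1.65 FPKM in IRDC, imDC and control. Nfkbia, the NF-kappaB inhibitor that NF-kappaB itself induces, had 29.5 ± 1.99 FPKM in IRDC, against 17.0 ± 1.55 FPKM in imDC (log2 fold change 0.76, limma adjusted p = 2.55e-06).

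**Figure D5:**
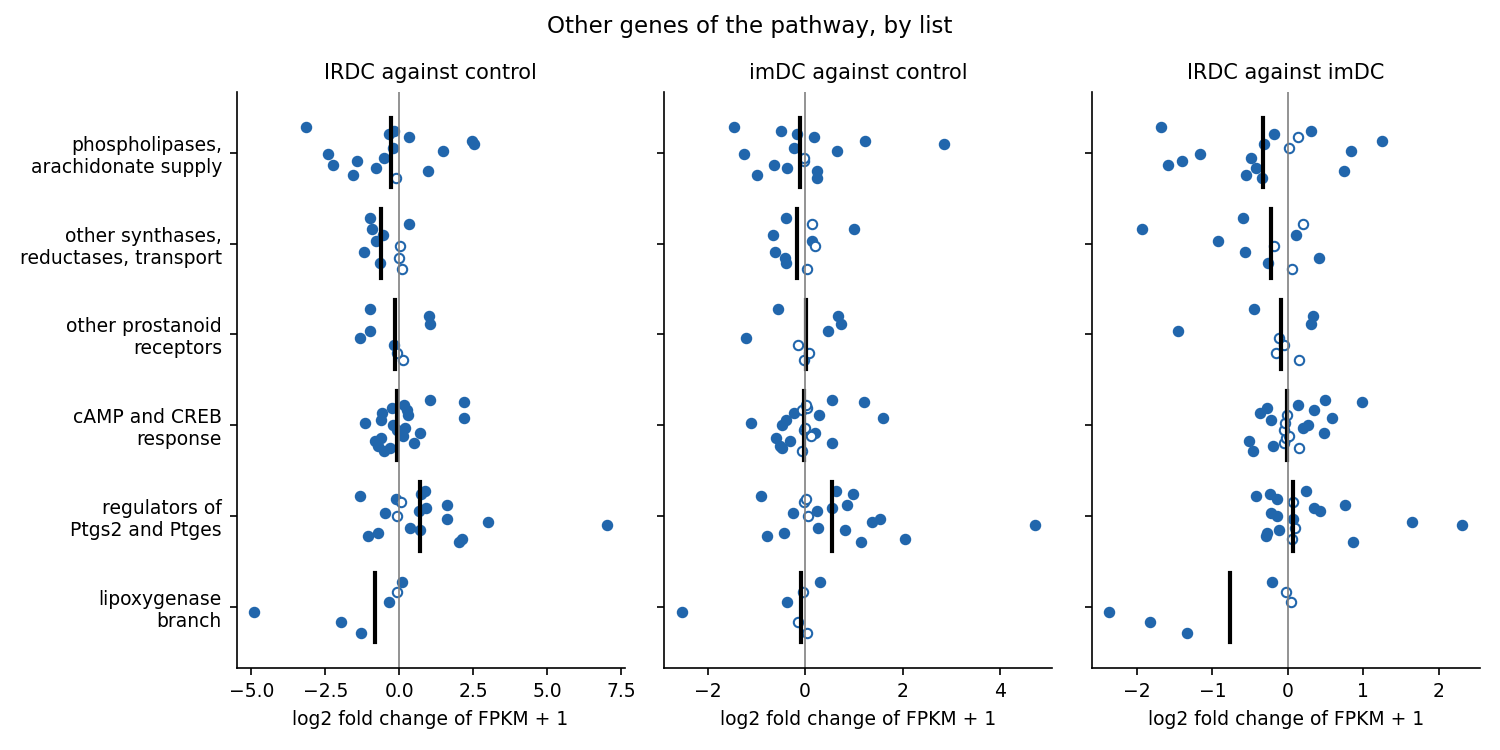
Log2 fold change of FPKM + 1 of each tested gene of 6 pathway lists that hold no member of the set, for IRDC against control (left), imDC against control (middle) and IRDC against imDC (right), each with its own axis; filled points have an adjusted p under 0.05 and the black bar is the list median. The bar of the regulators lies right of 0 against control (0.70 and 0.55), and the other lists have called genes on both sides of 0 against control.

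Genes whose profile over the 11 libraries lay nearest to a member were found by the root mean square difference of log2(FPKM + 1), each gene centred on its control mean, among genes with a mean of at least 5 FPKM. The measure is a description and carries no test. The added 1 FPKM compresses changes near 0, so genes can be near by this measure and still differ in their ratios of FPKM. Nearest to Ptgs2 was the cytokine gene Il6 (difference 0.0685), with 667 FPKM in IRDC, 236 FPKM in imDC and 13.1 FPKM in control libraries. Next came the carbonic anhydrase gene Ca12 (0.125) and the cytokine gene Lif (0.173). In IRDC, imDC and control, Ca12 had 53.9, 20.7 and 0.0644 FPKM and Lif 150, 50.5 and 2.34 FPKM. Ptges had no neighbour as close, the nearest being the small GTPase gene Rnd1 (0.165; 159, 49.5 and 1.21 FPKM in IRDC, imDC and control). After it came the chemokine gene Cxcl3 (0.210) and the colony-stimulating factor gene Csf3 (0.314; 130, 27.0 and 0.103 FPKM). Nearest to Ptgs1 were Fdps (0.0628), an enzyme of cholesterol synthesis, Rasa3 (0.0667) and Gpx3 (0.0741). Nearest to Hpgd were Phyh (0.109; 13.6, 24.2 and 24.9 FPKM in IRDC, imDC and control), Psme2 (0.117) and Mcm4 (0.118). Each had a mean in IRDC below that in imDC and control. Nearest to Ptger4 were Slc35f5 (0.0846), AC106292.2 (0.0881) and the reductase gene Ptgr2 (0.0984). The members that changed little had neighbours that changed little, Ap2a2 (0.0364), Selenoi (0.0370) and Abce1 (0.0394) for Ptges3, Acvr1 (0.0732), Aebp2 (0.0742) and Polr3a (0.0776) for Ptges2, and Psmd10 (0.0844), Mib2 (0.0990) and Enoph1 (0.105) for Ptger2.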

How the data were processed

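The deposited table holds FPKM values, made by the authors from reads on rn6. The submitters' processing notes name STAR 2.7.1a, HTSeq 0.13.5 and Cufflinks 0.17.3, beside SAMtools 1.3.1, FastQC 0.11.9 and cutadapt 1.18, and tie none of them to the FPKM step. Strandedness is not given in the sources used here. The table has 32883 genes, 388 without a name. Where a name stood on more than 1 line (192 names), the line with the highest mean carried it. FPKM summed to 424200 to 442750 per library. The values fall on steps of whole reads, and whole numbers were recovered for all 21487 genes that had any (within 0.1 read and a relative tolerance of 1e-08). These are the smallest whole numbers possible and may be too low for sparse genes. They served for depth, floors and an alternative fit.

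All 11 libraries entered 1 limma fit of log2(FPKM + 1) (lmFit, eBayes with a trend, no block), with Benjamini-Hochberg adjustment over 12521 genes. The same fit was also run on simulated libraries. Their known changes were put into well-covered genes only, with no shift of scaling between groups. That run therefore cannot show whether changes of low genes are found or how scaling acts. Shares were compared by exact permutation tests over libraries. A planned share of Ptges among Ptges, Ptgis and Ptgds was not computed because Ptgis is not analysed here, so 9 tests and not 12 were adjusted.

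The members and the lists were chosen with earlier results of these data known. All members are named. Of each of the 6 pathway lists, up to 4 called genes with the largest changes per comparison are named. The 3 genes nearest in profile to each member are also named. Ptprc, Lyz2, Cd163, C1qa, Cd14, Adipoq, Plin4, Pparg, the regulators called lower and the markers at 0 were named after their values were seen. Alternatives were leaving out each library, quantile normalization, TMM-like scaling, array weights, no trend, a block for the replicate number, fitting 2 groups alone, filters of 0 or 5 FPKM, and pseudocounts of 0.5 and 0.1. Voom on recovered reads was added after the data were seen. limma 3.58.1 ran in R 4.3.3, and pandas 2.3.3, NumPy 2.4.6, SciPy 1.17.1 and matplotlib 3.10.9 in Python 3.11.15. Promoters are from RefSeq on GRCr8 and cover 8 of the 9 members found.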

Additional observations from a re-analysis of the deposited data

Results flagged for a closer look

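Ptgds in IRDC replicate 2, at 0.0605 FPKM, stood apart from the other 3 IRDC libraries, which were at 0. The value was taken as 1 read, the smallest count possible, which is below the 3 reads that a count of 0 allows. Chance alone flags about 1 in 20 groups, and 17 groups of members were looked at.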

How the results depend on the processing

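The calls of Ptgs2, Ptges, Ptgs1, Hpgd and Ptger4 given in the report kept their direction and their side of the threshold under every alternative that could be run, the fit with no filter included. The fit with a filter of 5 FPKM left out Hpgd and Ptger2. Signs that turned belonged to changes that were not called: Ptges2 in IRDC against control with TMM-like (0.11) and quantile scaling (0.15), Ptges3 in IRDC against control with quantile scaling (-0.013) and in imDC against control with TMM-like scaling (0.040), and Hpgd in imDC against control with TMM-like (0.042) and quantile scaling (0.022). The cause was not tested. Leaving out each library in turn gave -0.012 to 0.031 for Ptges3 in IRDC against control, -0.075 to 0.056 for Hpgd and -0.032 to 0.17 for Ptger2 in imDC against control, and -3.04 to 1.09 points for the Ptger4 share in IRDC against imDC. With quantile normalization 8 members were called in IRDC against imDC, against 5. Without a library 5 to 6, 5 to 6 and 4 to 6 members were called in IRDC against control, imDC against control and IRDC against imDC. Whether the same replicate number pairs libraries could not be settled. Of 10 same-number pairs, 0 had deviations correlated over 0.1 (-0.05 to 0.07, other pairs -0.06 to 0.06), although 8 of 11 libraries correlated best with their own number. With the replicate number as a block, Ptger2 in IRDC against control (0.24, limma adjusted p = 0.0240) and Ptges3 in IRDC against imDC (0.08, adjusted p = 0.0435) passed the threshold, Hpgd in imDC against control was at 0.014, and 6, 5 and 6 members were called. Voom on recovered reads, chosen after seeing the data, called 5, 5 and 4 members. Depth limits Ptgds, Hpgd and Ptger2, which rest on 0 to 71 reads a library.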

Other observations

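Arachidonic acid also feeds the lipoxygenase and leukotriene branch, and most of that list was below the filter, with 6 of 17 genes tested. Of the 6, 1 was higher and 4 lower in IRDC against control, 1 and 2 in imDC against control, and 0 and 4 in IRDC against imDC. Under TMM-like scaling the first split was 2 and 3. Alox5, the 5-lipoxygenase, had 0.408 ± 0.151 FPKM in IRDC, 2.53 ± 0.111 FPKM in imDC and 2.43 ± 0.132 FPKM in control libraries. Its activating protein gene Alox5ap had 0.486 ± 0.299, 4.20 ± 0.557 and 4.76 ± 0.962 FPKM. Both passed the filter only through the imDC and control libraries, with every IRDC library below 1 FPKM, so they are given by their levels and their calls support nothing. Macrophage markers differed in both directions between these groups, and their part was not tested. Ephx1, the microsomal epoxide hydrolase, had 4.13 ± 0.293, 25.5 ± 0.983 and 152 ± 3.44 FPKM in IRDC, imDC and control, the largest fall of any list gene named here. Ephx2, the soluble epoxide hydrolase, fell by 0.34 in IRDC against control (adjusted p = 0.00259), a call lost under TMM-like and quantile scaling. Mgst2 rose by 0.32 in imDC against control and fell by 0.21 in IRDC against imDC.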
